A study of Mus musculus with 5 samples.

Results

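The proteasome genes described here are the 46 genes, of 27729 in the deposited files, whose mouse symbol runs from Psma to Psmg followed by a number, leaving out the interferon-inducible Psmb8 and Psmb9. By their place in the complex they were 8 genes of the alpha ring and 9 of the beta ring (together the 17 genes of the core particle), 6 base ATPases, 3 further base subunits, 8 lid subunits, 5 activators or inhibitors and 7 assembly factors. Of these, 44 had 10 or more expected counts in at least 1 library, as did 13346 genes in all, and only these are called tested below. The exceptions were Psma8 and Psmb11, known from testis and thymus, which had at most 2 and 3.61 counts in any library.

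The samples were mouse embryonic fibroblasts (MEFs) of the ICR strain, grown in medium with fetal bovine serum and then moved to a serum-free defined medium that the labels call 6C and the study calls 5C. It holds basic fibroblast growth factor, leukemia inhibitory factor, N2 supplement, 2-mercaptoethanol and vitamin C in DMEM/F12 and is used to turn fibroblasts into neuron-like cells. RNA was taken before the change of medium (day 0, MEFs in serum medium) and after 2, 5, 10 and 14 days in the induction medium; the treatment note on the labels gives the last as day 15. No transgene was named for these samples. In its cell preparation the study briefly trypsinized the fibroblasts to deplete loosely attached, potentially neurogenic cells before induction. No sorting of the cultures was named, and each day has 1 library, so no difference between days has a replicate check and no p-value is given. All intervals below cover counting error only, and reads without molecular identifiers are not independent molecules.

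The proteasome is the cell's main ATP-dependent protease for proteins tagged with ubiquitin. Its barrel-shaped core holds outer alpha rings, which gate the entry, and inner beta rings, which carry the proteolytic sites. A regulatory particle docks on the core: its base unfolds substrates with a ring of ATPases, and its lid holds the deubiquitinase that removes the ubiquitin chain. Fibroblasts express most subunits at all times, and the transcription factors Nfe2l1 and Nfe2l2 can raise many of them together through antioxidant response elements in their promoters. Interferon switches on alternative catalytic subunits, which form the immunoproteasome.

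The libraries held between 2253748 (day 2) and 3890334 (day 0) expected counts. Gm42418, which overlaps ribosomal RNA, took 4.79% of the counts on day 2 and at most 0.109% in the others. The mean length of the genes that gave the counts went from 2279 bases on day 0 to 3351 bases on day 10, so short genes as a class had lost share by then. All 10 fibroblast markers examined were detected on day 0. Together they held 1.77%, 1.51%, 2.42%, 3.28% and 3.69% of the counts in order of time. On day 10, 3 of the 10 were over 2-fold below day 0 (22.3% of all tested genes) and 3 over 2-fold above (28.7%). Of 8 neuron markers, 3, 4, 3, 2 and 3 were listed at 0 in the 5 libraries in order of time. The summed expected counts of these neuron markers were 688, 201, 274, 365 and 426, highest on day 0. These sums are not scaled for library size. In summed TPM they had 104, 51.6, 60.6, 87.0 and 120, highest on day 14. Between day 0 and day 10, 2 of the 5 tested neuron markers rose more than 2-fold (28.7% of all tested genes). The other 3 fell more than 2-fold (22.3%). The summed expected counts of 10 macrophage markers were 120, 435, 1050, 741 and 517 in the 5 libraries in order of time. In such bulk libraries fewer cells of a type and less RNA per cell cannot be told apart.

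Promoter sequences of 4 proteasome genes are shown because these genes mark the extremes of the time course and carry the elements named above. Psmb3 had the lowest change on day 10, and Psmb5 and Psmb6 encode catalytic subunits over 4-fold below day 0 on that day. The normalized count of Psme4 was highest on day 14. In raw counts and TPM Psme4 was highest on day 10 (635 counts and 61.8 TPM, against 573 and 54.0 on day 14). Each window covers 250 bases before and 50 bases after the annotated start (RefSeq, GRCm38.p6), is written along the strand of the gene, and counts positions from the start site. Capitals mark matches to TGACNNNGC (the antioxidant response element core), TGAGNNNGC (its variant) or CCAAT (the box bound by NF-Y), on either strand. The windows are chr11:97703184-97703483 (plus strand) for Psmb3, chr14:54617946-54618245 (minus) for Psmb5, chr11:70525107-70525406 (plus) for Psmb6 and chr11:30771525-30771824 (plus) for Psme4.
Psmb3: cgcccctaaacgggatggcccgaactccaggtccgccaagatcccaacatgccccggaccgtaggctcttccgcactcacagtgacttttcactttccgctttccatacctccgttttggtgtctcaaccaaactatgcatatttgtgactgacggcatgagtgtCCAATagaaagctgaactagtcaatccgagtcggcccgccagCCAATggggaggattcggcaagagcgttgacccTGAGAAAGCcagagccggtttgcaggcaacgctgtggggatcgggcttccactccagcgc
Psmb5: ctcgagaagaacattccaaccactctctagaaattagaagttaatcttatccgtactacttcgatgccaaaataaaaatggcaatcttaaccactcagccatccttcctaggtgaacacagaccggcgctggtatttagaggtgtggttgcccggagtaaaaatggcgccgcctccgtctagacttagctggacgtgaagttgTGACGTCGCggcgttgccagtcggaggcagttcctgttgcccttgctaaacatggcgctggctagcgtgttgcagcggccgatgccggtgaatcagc
Psmb6: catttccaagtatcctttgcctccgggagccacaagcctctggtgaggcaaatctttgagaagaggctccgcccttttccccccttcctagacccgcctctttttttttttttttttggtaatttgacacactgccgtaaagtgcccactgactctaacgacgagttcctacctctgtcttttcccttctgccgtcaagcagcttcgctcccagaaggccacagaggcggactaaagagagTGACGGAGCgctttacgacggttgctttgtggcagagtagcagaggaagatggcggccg
Psme4: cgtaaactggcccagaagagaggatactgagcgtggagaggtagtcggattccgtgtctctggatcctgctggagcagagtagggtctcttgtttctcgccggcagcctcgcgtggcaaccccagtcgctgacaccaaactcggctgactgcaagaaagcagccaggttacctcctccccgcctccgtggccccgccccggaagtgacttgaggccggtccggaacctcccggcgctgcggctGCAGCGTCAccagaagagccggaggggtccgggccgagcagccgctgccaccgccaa

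In these windows the core element began at -47 in Psmb5, at -9 in Psmb6 and, on the opposite strand, at -7 in Psme4. The Psmb3 window held CCAAT at -85 and -43 and the variant element at -10. Windows were found for 38 of the 46 genes, 41 windows in all. TGACNNNGC was in 6 of the 41 (14.6%) against 12.4% of all 32851 promoter windows, TGAGNNNGC in 13 (31.7%) against 17.6%, and CCAAT in 13 (31.7%) against 37.4%. A promoter with the core element was therefore about as frequent among proteasome genes as among all promoters. The genes that held it (Psmb5, Psmb6, Psmc6, Psmd9, Psmd12 and Psme4) ran from -2.40 to 0.34 in log2 change on day 10, and from -1.32 to -0.63 against genes of equal length.

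The question put to the time course was how the proteasome transcripts moved while the fibroblasts were in the induction medium. The normalized counts of the proteasome genes were mixed on day 2, when 17 had a counting interval above day 0, 11 below it and 16 across it. Nearly all were lower on day 5, lowest on day 10 and higher again on day 14. The median log2 change over the 44 genes against day 0 was 0.08, -0.75, -1.55 and -1.10 on days 2, 5, 10 and 14, while the median over all tested genes was -0.03, 0.05, 0.14 and 0.07. The median level on day 10 was thus 2.93-fold below day 0 in normalized counts. Against the all-gene median the differences were 0.11, -0.79, -1.69 and -1.17. On the TPM scale the median change over the 44 genes was -0.17, -0.05, -0.40 and -0.24. On that scale 29 genes were lower and 15 higher on day 10 than on day 0.

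Step by step, 42 of the 44 genes were lower on day 5 than on day 2, 43 were lower on day 10 than on day 5, and 42 were higher on day 14 than on day 10. On the TPM scale the step from day 2 to day 5 turned, with 25 genes higher and 19 lower, while 37 were lower on day 10 than on day 5 and 35 were higher on day 14 than on day 10. In normalized counts, the lowest of the 5 libraries was day 10 for 41 genes. The highest was day 2 for 25 genes, day 0 for 18 and day 14 for Psme4 alone. The 95% counting interval of the day 10 change lay below 0 for 42 genes, above 0 for Psme4 and across 0 for Psme1.

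On days 2, 5, 10 and 14, the number of proteasome genes over 2-fold below day 0 was 0, 10, 34 and 27 of 44, against 13.1%, 13.6%, 22.3% and 19.9% of all tested genes. No proteasome gene was over 2-fold above day 0 at any of these times, against 15.2%, 20.2%, 28.7% and 24.5% of all tested genes. These counts depend on the scaling. On the deposited TPM scale, on which the median of all tested genes was itself -0.20, 0.61, 1.09 and 0.78, the genes over 2-fold below day 0 were 1, 1, 7 and 3, and those over 2-fold above were 1, 1, 2 and 2. The 7 on day 10 were Psmb3, Psmb4, Psmb5, Psmb6, Psmb7, Psmd8 and Psmg3, and the 2 above were Psme1 and Psme4. No share of all tested genes on the TPM scale is given here, so these TPM counts cannot be called many or few. Relative to the all-gene median, the day 10 difference on the TPM scale was -1.49.

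The share of each library's total counts, a measure scaled only by that total, took the same course. It comes from the same counts and is not corrected for gene length, so it is not an independent check. Proteasome genes held 0.884% of all expected counts before induction (95% Clopper-Pearson interval 0.875 to 0.894) and 0.908% (0.896 to 0.921) after 2 days. Their share was 0.643% in the day 5 library (0.634 to 0.651), 0.417% in that of day 10 (0.411 to 0.424) and 0.503% in that of day 14 (0.496 to 0.511). None of these intervals overlapped, but those of days 0 and 2 came close to each other. Without Gm42418 and Lars2, which can collect ribosomal RNA reads, the share on day 2 was 0.968%. The summed TPM, which weighs each gene by length, was 10551, 10526, 9128, 7099 and 7912 on the 5 days in order.

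**Figure D1:**
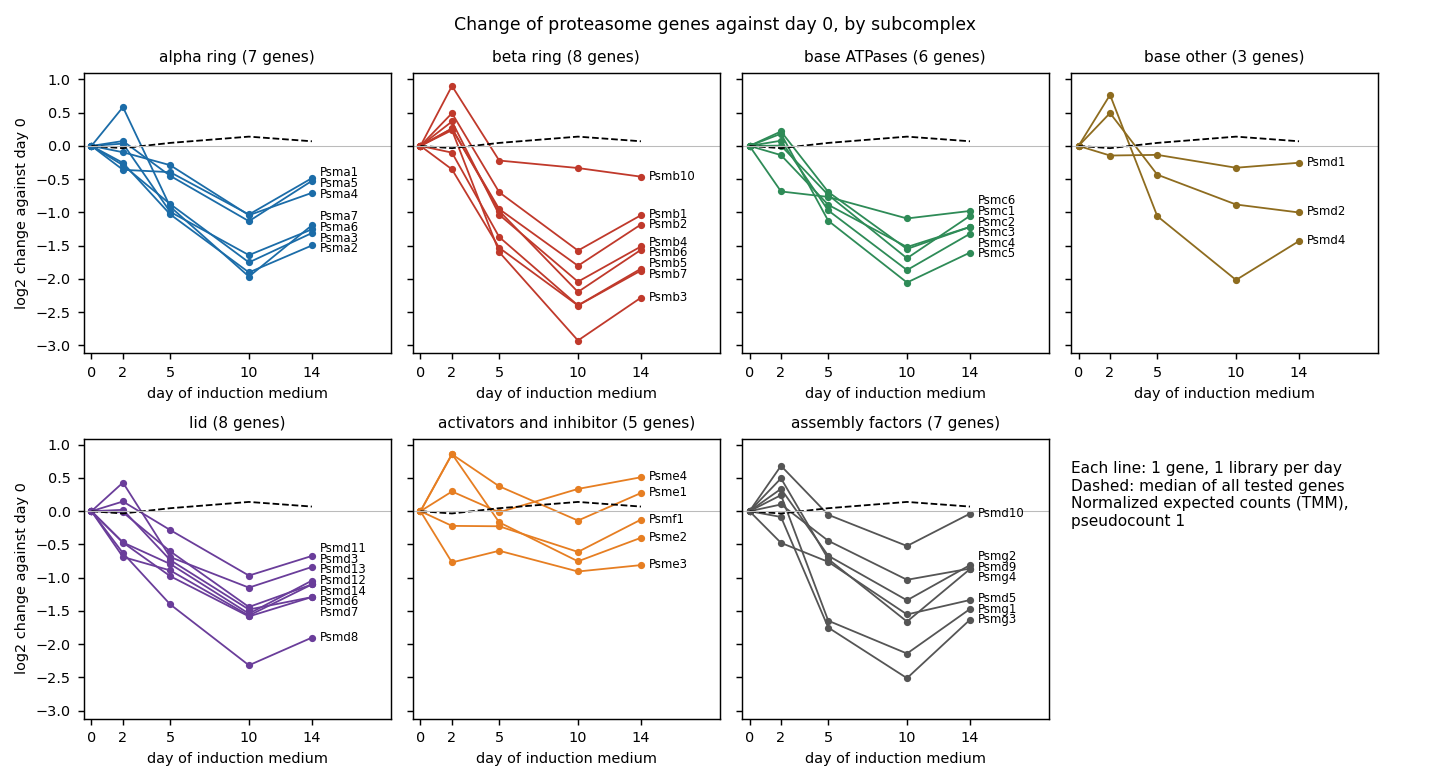
Log2 change of normalized expected counts against day 0 (y axis) by day in induction medium (x axis) for the 44 tested proteasome genes, 1 panel per subcomplex and 1 line per gene, with 1 library per day. The dashed line is the median of all 13346 tested genes; nearly every line has its lowest point on day 10, and Psme4 ends above its start.

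Gene length was the next point, because most proteasome genes are short. The median length of the 44 genes was 1258 bases, against 2477 bases for all tested genes. When the tested genes were ranked by length and cut into 5 equal groups, the median day 10 change increased with length from -1.04 in the shortest group through -0.28, 0.11 and 0.49 to 0.91 in the longest. The shortest group held 27 of the 44 proteasome genes and the longest held only Psme4. Each proteasome gene was therefore set against the 500 other tested genes nearest to it in length.

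Set against genes of equal length, the proteasome genes were still lower from day 5 on, by a smaller margin. The median difference was 0.01, -0.54, -0.88 and -0.78 on the 4 later days, and the neighbours' own median change was 0.04, -0.26, -0.72 and -0.50. Below their length neighbours were 20, 38, 41 and 37 of the 44 genes. More than 2-fold below them were 0, 5, 21 and 10 genes, against 12.2%, 11.5%, 18.9% and 18% of all tested genes. No proteasome gene was more than 2-fold above its neighbours, against 16%, 18.6%, 23.9% and 22.1% of all tested genes. When the neighbours were limited to genes with a mean normalized count of 100 or more, the median differences on days 5, 10 and 14 were -0.36, -0.56 and -0.52.

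Within the proteasome the day 10 change also went with length. Across the 44 genes, log2 length and log2 change had Pearson's r of 0.582 and Spearman's rho of 0.547. Across the 6195 tested genes with a mean normalized count of 100 or more and a TPM above 0 on day 0 the values were 0.478 and 0.555. These are correlations across genes of the same libraries, which are not independent replicates.

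**Figure D2:**
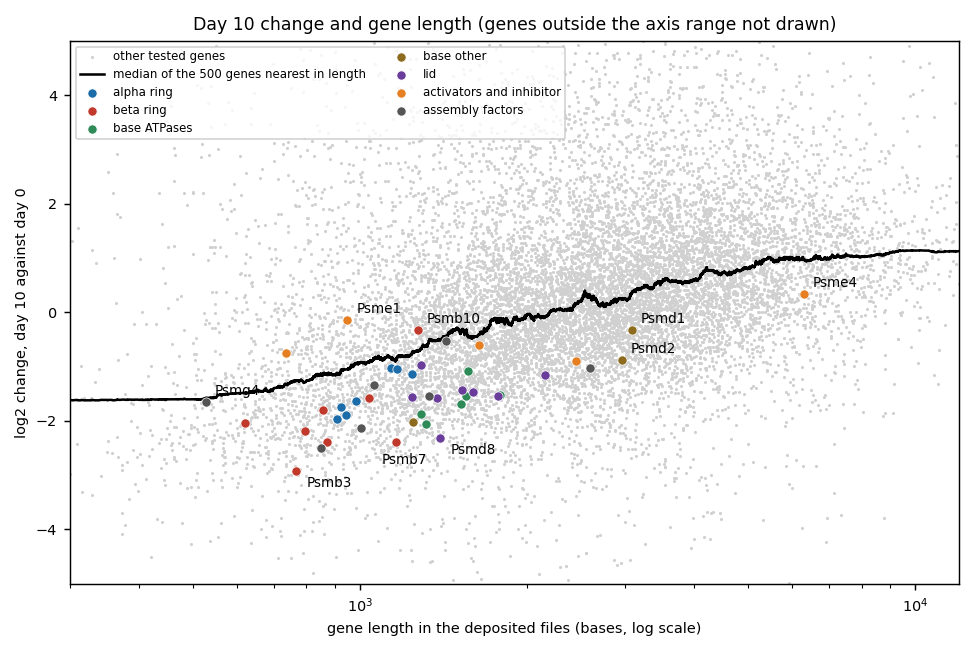
Log2 change on day 10 against day 0 (y axis) and gene length in bases in the deposited day 0 library (x axis, log scale) for all tested genes (grey) and the 44 proteasome genes (coloured by subcomplex). The black line is the median of the 500 genes nearest in length; 41 of the 44 proteasome genes lie below it, and Psme1, Psme2 and Psmb10 lie above it.

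The alpha ring genes changed in the same direction. By day 10 all 7 tested alpha subunits had fallen more than 2-fold, as had 22.3% of all tested genes. Their log2 changes ran from -1.96 to -1.03, with a median of -1.64. Against length neighbours their median difference was -0.66. None lay more than 2-fold under its neighbours, against 18.9% of all tested genes. Psma7, at the low end, had 1172, 961, 703, 415 and 567 expected counts (values by library are in order of day throughout). Psma1, at the high end, had 420, 179, 361, 284 and 332. In normalized counts both were lowest on day 10. On day 2 the log2 change was 0.58 for Psma7 and -0.36 for Psma1. The lowest raw count of Psma1 was on day 2, in the smallest library. Psma7 changed by -1.96 on day 10 (95% interval -2.13 to -1.81) and Psma1 by -1.03 (-1.26 to -0.81), so these 2 subunits of the same ring differed beyond counting error.

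The beta ring had the lowest median change of the subcomplexes on day 10. Its 7 constitutive subunits were all over 2-fold below day 0 on day 10 (22.3% of all tested genes) and still on day 14 (19.9%). On day 10 they ran from -2.93 to -1.57 with a median of -2.20, a 4.58-fold lower level. Relative to length neighbours their day 10 median was -0.91, and 3 of them were over 2-fold below (18.9% of all tested genes). Psmb3, a structural subunit without proteolytic activity, had 1537, 991, 574, 279 and 349 expected counts. Its day 10 change of -2.93 (95% interval -3.12 to -2.75) was a 7.60-fold lower level and the lowest among all proteasome genes. Near-identical copies of Psmb3 exist in the genome; of these Gm4950 had 0 counts throughout and the others were not analysed here, so the source of some Psmb3 reads is uncertain.

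The catalytic subunits followed the same course. Psmb5, which carries the chymotrypsin-like activity (chr14:54614119-54618022, minus strand, GRCm38), had 1149, 586, 502, 301 and 353 expected counts. Psmb6, with the caspase-like activity (chr11:70525367-70527858, plus strand), had 1197, 786, 687, 361 and 448. Psmb7, with the trypsin-like activity (chr2:38588036-38644087, minus strand), had 1459, 625, 570, 382 and 440. In each of the 3 genes the raw count of day 10 was under that of day 2, although the day 2 library was much smaller. Their log2 changes on day 10 were -2.40 (95% interval -2.59 to -2.22), -2.20 (-2.37 to -2.03) and -2.40 (-2.57 to -2.24), and on day 14 they were 0.55, 0.63 and 0.53 above day 10. Psmb5 and Psmb7 were 1.26 and 1.52 below their length neighbours on day 10, Psmb6 0.91. Psmb7 shares 255 identical bases with its neighbour Nek6, whose counts went the other way (191, 162, 487, 601 and 390), so its value is less certain.

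Psmb10, the inducible counterpart of Psmb7 and the only interferon-inducible catalytic subunit kept by the rule, stood apart. It had 202, 207, 196, 222 and 162 expected counts (chr8:105935735-105938444, minus strand). Its log2 change was 0.90 on day 2 (95% interval 0.62 to 1.19) and -0.33 on day 10 (-0.62 to -0.05), with -0.22 and -0.46 on days 5 and 14. It was 0.39 above its length neighbours on day 10, the only beta subunit above them. The other inducible subunits, outside the rule, were over 2-fold above day 0 on every later day. Psmb8, the counterpart of Psmb5, had 15, 73.9, 244, 298 and 303 expected counts, and Psmb9, the counterpart of Psmb6, had 4.31, 19, 68.8, 95.1 and 80.7. Their log2 changes on day 10 were 3.75 (95% interval 3.10 to 4.70) and 3.71 (2.70 to 6.00).

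Per length, the balance at each catalytic position moved towards the inducible form. Of the TPM of each pair, Psmb8 made up 0.691%, 6.09%, 25.8%, 44.2% and 38.4% in order of day. Psmb9 made up 0.228%, 1.48%, 8.06%, 14.7% and 10.3%, and Psmb10 made up 11.2%, 23.2%, 23.9%, 34.7% and 24.0%. In all 3 pairs the inducible share was highest on day 10, when the constitutive partner was lowest. The length the deposited files give Psmb8 went from 1611 to 1085 bases between day 0 and day 10, which enters its TPM. Over the same days 10 interferon response genes had a median log2 change of 0.86, 1.99, 2.38 and 2.26. On day 10, 8 of these 10 were over 2-fold above day 0 (28.7% of all tested genes). The 10 macrophage markers had medians of 2.01, 3.08, 2.32 and 2.15, with Ptprc at 0, 1, 8, 22 and 4 counts. The part of either gene list in the inducible subunits was not tested.

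**Figure D3:**
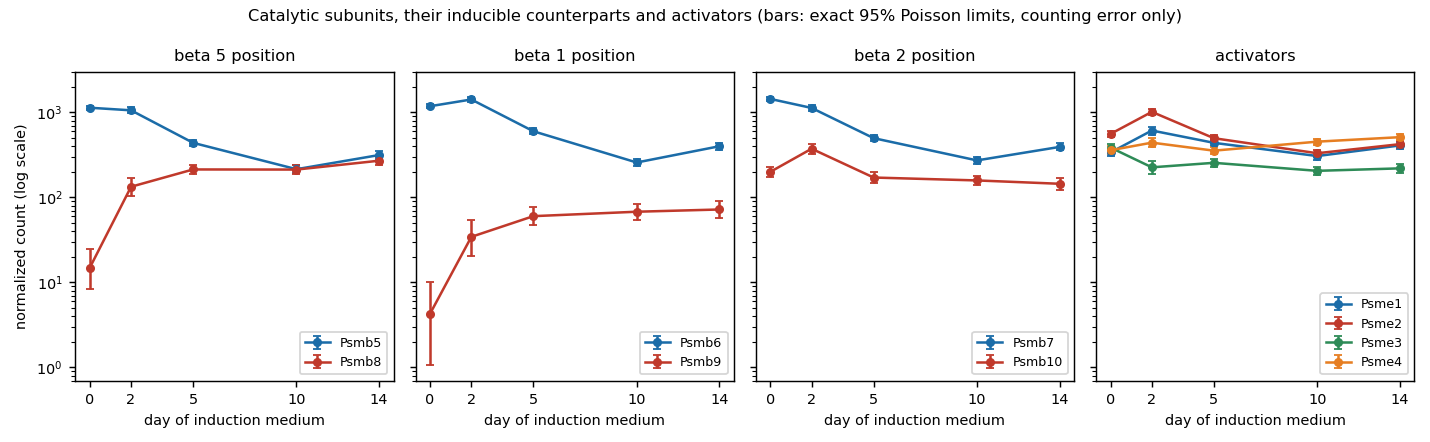
Normalized expected counts (y axis, log scale) by day in induction medium (x axis) for the subunits at the 3 catalytic beta positions, each constitutive gene (blue) with its inducible counterpart (red), and for the 4 activators, 1 library per day. Bars are exact 95% Poisson limits; Psmb5 and Psmb8 meet on day 10, whereas Psmb9 stays below Psmb6 on every day.

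The TPM levels of the core subunits became more alike by day 10, as did those within the other complexes examined. Per length, the highest of the 14 constitutive core genes was Psmb4 on every day and the lowest was Psma1. Psmb4 had 909, 1358, 564, 352 and 398 TPM, and Psma1 had 130, 80.4, 161, 135 and 170 TPM. The highest level was 6.99, 16.9, 3.50, 2.60 and 2.34 times the lowest in order of day. The coefficient of variation of TPM over the 14 genes was 49.6%, 76.9%, 34.0%, 26.5% and 26.4%. Between day 0 and day 10 it also fell in base and lid, from 55.6% to 34.7%. In the COP9 signalosome, eIF3 and the CCT chaperonin, described below, it went from 98.4%, 68.0% and 34.7% to 40.8%, 52.5% and 25.2%. Mitochondrial ribosomal proteins and complex I went from 93.4% and 62.4% to 59.3% and 46.7%. The isoform-weighted length of Psmb4 in the files went from 621 to 840 bases between day 0 and day 10, which lowers its TPM for a given count.

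A relation to starting level largely describes the same narrowing again, since a falling spread needs higher genes to fall more than lower ones. Across the 31 constitutive core, base and lid genes, log2 TPM on day 0 and the log2 change from day 2 to day 10 had r of -0.849 and rho of -0.850. Across the 6195 well-counted genes they were -0.666 and -0.658, so a similar relation held in the libraries as a whole. After subtraction of the length neighbours, the values were -0.366 and -0.402 for the 31 genes and -0.395 and -0.335 for the 6195. The points share libraries and depth, and TPM depends on the same gene length.

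**Figure D4:**
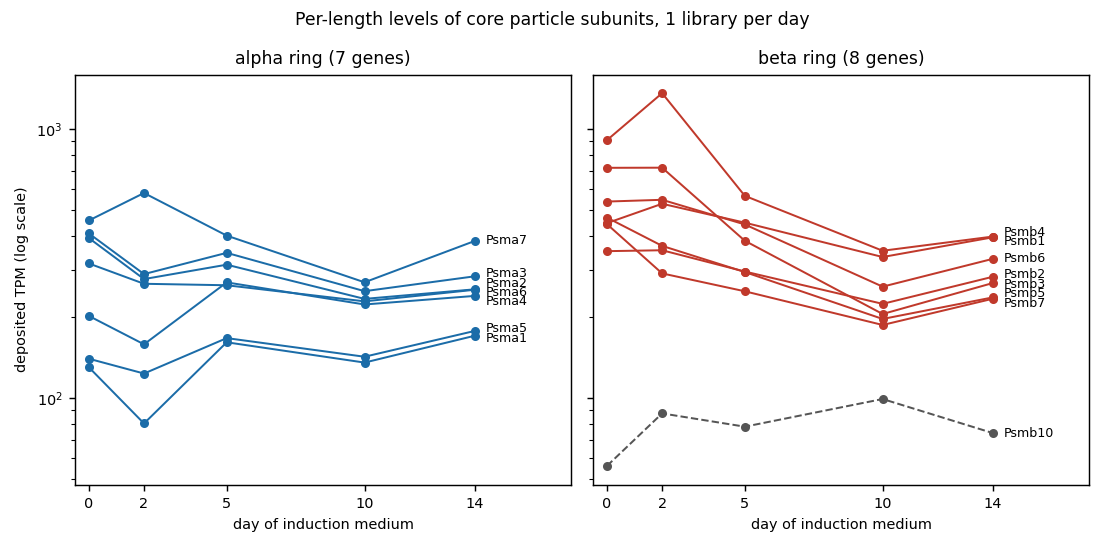
Deposited TPM (y axis, log scale) by day in induction medium (x axis) for the 7 tested alpha and 8 tested beta ring genes, 1 library per day; the dashed grey line is the inducible Psmb10. The constitutive lines span 130 to 909 TPM on day 0 and 135 to 352 TPM on day 10.

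The base lay further below genes of equal length than the core did, although its own change was smaller. Its 9 genes had a median log2 change of -1.55 on day 10, and the 14 constitutive core genes had -1.85, but against length neighbours the medians were -1.23 for the base and -0.68 for the core, with 7 of 9 and 3 of 14 genes over 2-fold below (18.9% of all tested genes). This difference between subcomplexes was not tested, as genes are not replicates. The 6 ATPases, which form the unfolding ring, were all over 2-fold below day 0 on day 10 (22.3% of all tested genes). Psmc5 had the lowest change, -2.05 (95% interval -2.23 to -1.89), with 1103, 685, 571, 367 and 401 expected counts. Psmc6 had the highest, -1.09 (-1.29 to -0.90), with 556, 189, 369, 361 and 312 counts. Psmc6 was the only ATPase under 2-fold from its length neighbours (-0.63) and was already at -0.68 on day 2, when the other 5 lay between -0.14 and 0.22.

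The remaining ATPases had near-parallel counts. Psmc1 had 984, 540, 667, 422 and 525 expected counts, and Psmc2 had 942, 468, 576, 454 and 448. Psmc3 had 1218, 775, 852, 576 and 579 counts, and Psmc4 had 895, 517, 516, 339 and 396. Their log2 changes on day 10 lay between -1.87 (Psmc4) and -1.52 (Psmc2).

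Among the other base subunits, Psmd4, a ubiquitin receptor, had 1389, 1294, 755, 475 and 570 expected counts. It was at 0.77 on day 2 and -2.02 on day 10 (95% interval -2.17 to -1.87), the widest swing of the base. Psmd2, a scaffold on which ubiquitin receptors and shuttles dock, had 1621, 1249, 1358, 1219 and 896 counts and a change of -0.88. Psmd1, the other large scaffold, had 495, 245, 510, 546 and 460 counts and a change of -0.33. The scaffolds have lengths of 2961 and 3083 bases, so against genes of equal length Psmd2 was at -1.12 and Psmd1 at -0.67. Psmd2 was 1 of only 2 proteasome genes lower on day 14 than on day 10, at -0.12 (95% interval -0.25 to 0.01). Psmb10 was the other, at -0.13 (-0.43 to 0.17), so both intervals crossed 0. A near-identical copy of Psmd2, Gm5422, had 0 counts throughout.

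The lid showed a median log2 change of -1.51 on day 10, with 7 of 8 genes over 2-fold below day 0 (22.3% of all tested genes). Over 2-fold below length neighbours were 6 of 8 (18.9% of all tested genes), with a median difference of -1.06. Psmd8, whose product joins the lid last, had 2215, 783, 948, 615 and 656 expected counts, and was the only lid gene over 2-fold below day 0 on day 5 (-1.40). Its day 10 change of -2.32 (95% interval -2.45 to -2.19) was 1.80 below its length neighbours, the largest such difference among proteasome genes. At the other end was Psmd11, a lid scaffold subunit, with 391, 237, 364, 277 and 271 counts and a change of -0.97. A gene 97.9% identical to Psmd11 over 1501 bases, A730017L22Rik, had 10.92 to 50.03 counts, and the isoform-weighted length of Psmd11 went from 1289 to 2235 bases by day 10, so its values are less certain.

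Psmd14, the deubiquitinase of the lid, had 563, 191, 343, 262 and 290 expected counts. It changed by -1.57 on day 10 and was 0.83 below its length neighbours. Psmd7, its inactive partner, had 1005, 558, 683, 499 and 454 counts and a change of -1.48. On day 2 they were further apart, with Psmd14 at -0.69 and Psmd7 at 0.02. Of the scaffold subunits, Psmd3 had 1003, 740, 703, 626 and 621 counts, Psmd6 had 715, 282, 410, 330 and 323, Psmd12 had 507, 274, 377, 258 and 261, and Psmd13 had 770, 304, 502, 366 and 413. Psmd13 shares 329 identical bases with Sirt3, which overlaps it.

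Activators and the inhibitor were the subcomplex closest to the starting level. On day 10 their median log2 change was -0.61, and 0 of 5 were over 2-fold below day 0, a count too small to set against the 22.3% of all tested genes. Psme1 and Psme2, the interferon-inducible subunits of the ring that opens the core without ATP, had 342, 339, 502, 430 and 458 and 565, 562, 569, 464 and 474 expected counts. Both were at 0.86 on day 2, and on day 10 Psme1 was at -0.14 (95% interval -0.35 to 0.07) and Psme2 at -0.75 (-0.94 to -0.58). Against genes of equal length they were 0.91 and 0.57 higher on day 10, and the part of the interferon response genes in this was not tested. The TPM of Psme2 was 2.16 times that of Psme1 on day 0 and 1.18 times on day 10, though the file length of Psme1 changed from 948 to 823 bases.

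Psme3, a nuclear activator not induced by interferon, had 390, 125, 292, 288 and 246 expected counts. It was the lowest of this group on every day, with -0.77 on day 2 and -0.91 on day 10, and 1.06 below its length neighbours on day 10. Psme4, the large nuclear activator linked to histone degradation, had 363, 244, 406, 635 and 573 counts (chr11:30771726-30880361, plus strand). Its log2 change was 0.34 on day 10 (95% interval 0.15 to 0.53) and 0.51 on day 14 (0.32 to 0.71), the highest of all 44 genes on both days. At 6288 bases it is also the longest of them, and genes of its length had higher changes, so Psme4 was 0.64 below its length neighbours on day 10 and 0.04 below on day 14. Psmf1, which encodes a proteasome inhibitor protein, had 145, 68, 140, 131 and 147 counts and a change of -0.61 on day 10.

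The 7 assembly factors are not part of the finished particle, but their median log2 change on day 10 was -1.55, equal to that of the base. Psmg1 and Psmg3, chaperones of alpha ring assembly, had 207, 134, 74, 64 and 82 and 198, 102, 65.8, 47 and 70 expected counts. With -2.14 (95% interval -2.59 to -1.75) and -2.51 (-3.04 to -2.08) on day 10 they were the lowest of the group, and both were already over 2-fold below their length neighbours on day 5. Their binding partners Psmg2 and Psmg4 were at -1.34 and -1.66, and 0.47 and 0.08 below their length neighbours. The base chaperones Psmd5 and Psmd9 had 275, 108, 183, 129 and 120 and 155, 91.0, 128, 104 and 93.9 counts, with changes of -1.55 and -1.03. Psmd10, a base chaperone also known as gankyrin, had 101, 89, 110, 97 and 109 counts and a change of -0.52, the highest of the assembly factors, with an interval of -0.95 to -0.11.

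Proteasome genes varied less among themselves than genes at large, as did the other complexes examined. On day 10 the standard deviation of the log2 change was 0.68 over the 44 genes and 0.54 over the 31 constitutive core, base and lid genes, against 1.80 over all tested genes and 1.70 over those with a mean normalized count of 100 or more. After subtraction of the length neighbours it was 0.59, 0.42, 1.70 and 1.51. In the complexes described below (the COP9 signalosome, eIF3, the CCT chaperonin, mitochondrial ribosomal proteins and complex I) the day 10 standard deviations were 0.61, 0.69, 0.60, 0.58 and 0.60.

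Of 11 further proteasome genes with other symbols, 6 had fallen more than 2-fold by day 10, against 22.3% of all tested genes. A rise of more than 2-fold was seen in 2, Psmb8 and Psmb9, against 28.7% of all tested genes. Among the constitutive genes of that list, Sem1, the small lid subunit, had 2180, 1541, 870, 469 and 553 expected counts and a day 10 change of -2.68 (95% interval -2.83 to -2.54). Pomp, the chaperone of core maturation, had 818, 442, 528, 282 and 352 counts. Txnl1, a thioredoxin that binds the regulatory particle, was at -1.74 on day 10, and the ubiquitin receptor Adrm1 at -1.40.

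Upstream of the proteasome, 15 ubiquitin, ubiquitin-activating and shuttle genes had a median log2 change of -0.63 on day 10, with a wider spread than the proteasome genes (standard deviation 1.20 against 0.68). Over 2-fold below day 0 were 3 of the 15, close to the share of all tested genes (22.3%), and 0 were over 2-fold above (28.7%). Against genes of equal length, 13 of the 15 were lower, 5 of them over 2-fold (18.9% of all tested genes), with a median of -0.54. Rad23b, a shuttle that brings substrates to the proteasome, had 991, 257, 553, 568 and 484 counts and a change of -1.27. The polyubiquitin gene Ubb was at -0.18.

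The list of regulators held transcription factors and also Keap1 and Ngly1, which are not transcription factors. Of its 8 tested genes, 3 were over 2-fold above day 0 on day 10 (28.7% of all tested genes) and 0 were over 2-fold below (22.3%). Against genes of equal length their median was 0.33, with 1 of the 8 over 2-fold above (23.9%). Nfe2l1, the factor that restores proteasome transcription when the protease is inhibited, had 616, 383, 988, 1330 and 1084 counts and a change of 0.64. Nfe2l2, the regulator of the antioxidant response, had 160, 123, 633, 520 and 352 counts, with 1.80 on day 5 and 1.22 on day 10. Nfya, an NF-Y subunit, and Foxo4, a forkhead factor, were at 1.23 and 1.30. On day 10, 5 of the 8 regulators were above day 0 and 3, Keap1, Nfyb and Nfyc, were below it, at -0.01, -0.48 and -0.55.

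Other multi-subunit complexes went the same way, so the direction was not particular to the proteasome. Among complexes related to the lid by structure, the COP9 signalosome (9 genes) had a median log2 change of -1.05 on day 10. In it 5 genes were over 2-fold below day 0 (22.3% of all tested genes), and eIF3 (13 genes) had -1.40 with 11. Their lowest members were Cops6 at -2.19 and Cops5 at -1.50, and Eif3g at -2.32 and Eif3i at -2.13. The CCT chaperonin (8 genes), a folding machine of the cytosol, had -1.78 with 7, led by Cct3 at -2.29 and Cct7 at -1.99. Against genes of equal length the medians were -0.94, -1.09 and -1.60, beside -0.88 for the proteasome genes. Mitochondrial ribosomal proteins (77 genes) and subunits of respiratory complex I (36 genes) had medians of -1.88 and -2.09, and -0.92 and -0.69 against genes of equal length. The proteasome median thus lay within the range of these 5 complexes on both measures.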

How the data were processed

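Total RNA was taken with Trizol and made into libraries with the Illumina TruSeq RNA kit, per the labels. The submitters' processing notes name Bowtie, RSEM and the mm10 genome; their versions are not given in the sources used here. The deposited files, 1 per library, hold for 27729 Ensembl genes the expected counts that RSEM estimated, the TPM and FPKM values the authors derived from them by RSEM, and an isoform-weighted length. FPKM was not used. Expected counts were not rounded except for intervals.

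Symbols for 27247 genes came from a gene name table, coordinates from GENCODE M21 (GRCm38) and promoters from RefSeq (GRCm38.p6). Expected counts were divided by library sizes scaled with TMM (edgeR 4.0.16, R 4.3.3), and log2 changes used a pseudocount of 1. Genes with 10 or more counts in at least 1 library were tested for a change over 2-fold, which with 1 library per day is a threshold and not a statistical test. Counting intervals are 95% Clopper-Pearson intervals of the rounded counts of both libraries and use no pseudocount. A count of 0 allows up to 3 counts, or 0.771 (day 0) to 1.33 (day 2) CPM. The steps were tested on simulated data. Matches of at least 200 bases with at least 95% identity to a proteasome transcript were found for 17 of the 46 genes in GENCODE, and for 11 of them in a gene of the deposited files; how RSEM split such reads is not known.

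Genes described with counts in every library were the catalytic subunits and their inducible counterparts, the activators and the inhibitor, the lowest and highest of each subcomplex on day 10, and every gene over 2-fold from its length neighbours. Of related lists, the 2 genes with the largest day 10 change among those with 30 or more counts were named where reported, with Nfe2l1 and Nfe2l2; Adrm1, Pomp, Txnl1, Ubb, Psmd7, Psmd14, Psmg2, Psmg4, Keap1, Nfyb and Nfyc were added for their roles, and some genes of these lists are not reported here. The members and lists were chosen with earlier results of these data known. Alternatives were DESeq2 1.42.0 size factors, upper-quartile factors, TPM, other pseudocounts, filters, thresholds and length neighbours.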

Additional observations from a re-analysis of the deposited data

How the results depend on the processing

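Of the series of results on the proteasome genes as a whole, 130 values under an alternative setting stayed within the tolerance used (the median half-width of the single-gene counting intervals for a median, the counting interval for a share, 1.5 times for a count) and 23 moved. The difference from genes of equal length on day 2, 0.01, was -0.02 with TPM. With TPM in place of normalized counts, the genes over 2-fold below day 0 were 1, 1, 7 and 3 on days 2, 5, 10 and 14. Those over 2-fold above were 1, 1, 2 and 2, with no share of all tested genes on that scale given. The day 10 median relative to all genes was then -1.49. With no filter on counts, the differences from genes of equal length were -0.75, -1.54 and -1.08 on days 5, 10 and 14, since genes without counts then entered the neighbours, and 1 gene (Psma8, 2 counts) was over 2-fold above day 0 on day 5. With length neighbours limited to a mean normalized count of 100 or more, they were -0.36, -0.56 and -0.52. At a 1.5-fold threshold, 4 genes on day 2 and 31 on day 5 were below day 0 and 5 on day 2 above; at a 3-fold threshold, 3, 18 and 6 were below on days 5, 10 and 14. Without Gm42418 and Lars2 the share of counts on day 2 was 0.968%. DESeq2 size factors, upper-quartile factors, a pseudocount of 5, a filter of 50 counts, leaving out Psma8 and Psmb11, the mean in place of the median, 200 or 1000 neighbours and the mean length moved none of these results past that tolerance, although the genes over 2-fold below day 0 on days 5, 10 and 14 were 11, 35 and 28 with DESeq2 size factors. No paired analysis was possible because each time point has 1 library, and for the same reason no replicate could be left out. Depth limited the single-gene changes on day 10 to a median half-width of 0.18 on the log2 scale, and to 0.48 for the gene with the widest interval.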
